A study of Homo sapiens with 136 samples.

Results

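The DNA replication genes of the G1/S transition are 39 genes whose products license replication origins, activate the replicative helicase, copy the DNA, supply its nucleotides and assemble new chromatin behind the fork. They were taken by symbol from the 25435 gene symbols of the count table, and all 39 were found in it. Their expression was measured by PLATE-Seq, an RNA sequencing method that makes barcoded libraries from cells lysed in multi-well plates, in 2 established human lines of pancreatic ductal adenocarcinoma, AsPC-1 and PANC-1. After 24 h of growth, cells received for a further 24 h either hydroxychloroquine (HCQ), which blocks breakdown of autophagic cargo in the lysosome, or with an inhibitor of Vps34 (written VSP34I in the labels), a lipid kinase needed to form autophagosomes. Either autophagy inhibitor was used alone, with 6 libraries per line, or with 1 of 14 kinase inhibitors, with 2 libraries per combination, so that each line had 30 treatment groups and 68 libraries. Of the kinase inhibitors, 5 act on MEK (binimetinib, cobimetinib, refametinib, selumetinib and trametinib) and 4 on ERK (AZD0364, ravoxertinib, SCH772984 and ulixertinib). The RAF inhibitors were sorafenib, dabrafenib, PLX8394, GDC-0879 and RAF709, the last of which acts on several RAF proteins and was taken apart from the others. Every drug was given at the concentration that left 80% of cells viable after 48 h of the drug by itself, so drugs were not compared at equal concentrations. Every group carried an autophagy inhibitor: untreated cells, and a kinase inhibitor without one, are not analysed here. Within a line, all drug effects below share the same 12 libraries of an autophagy inhibitor alone. Whether the libraries of a group came from separate cultures is not stated, so the p-values measure the spread between these libraries, which may be technical.

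Before S phase, the origin recognition complex together with CDC6 and CDT1 loads the MCM helicase onto origins, and CDC45 and the GINS complex then join it to form the active helicase. Primase and the polymerases start and extend the new strands, held by the sliding clamp PCNA, which the RFC complex loads. Many of these genes are targets of E2F transcription factors, which are held back by the retinoblastoma protein until cyclin-dependent kinases phosphorylate it. Signalling through RAF, MEK and ERK raises cyclin D1 in many cells and so acts upstream of that step. RNA was extracted from whole wells, so fewer cells in S phase and less of a transcript per cell cannot be told apart.

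Sequences of the promoters are shown because E2F sites in them are the feature these genes are best known to share. The RefSeq promoter table (build GRCh38.p14) held 37 of the 39 genes and gave the 250 bases before and 50 bases after each start. The letters TTTGGCGC, TTTCCCGC, TTTCGCGC, TTTGCCGC and TTCCCGCC were searched on both strands as E2F-type matches, and 2 of them can overlap in one stretch. A match was found in 24 of the 37 promoters (64.9%), against 1521 of 27305 promoters in the whole table (5.57%). The letters CCAAT, searched on both strands, were in 21 of the 37 (56.8%) and in 35.7% of all promoters. The promoters of 4 genes follow, 5′ to 3′ on the strand of the gene, with the E2F-type matches in capitals. They belong to the members with a match that the naming rule, given with the processing below, picked most often over the comparisons. These are the sliding clamp gene PCNA (chr20:5126573-5126872, minus strand), the helicase subunit gene MCM7 (chr7:100101348-100101647, minus strand), the GINS subunit gene GINS2 (chr16:85688905-85689204, minus strand) and CHAF1A, for the largest subunit of chromatin assembly factor 1 (chr19:4402390-4402689, plus strand).
PCNA: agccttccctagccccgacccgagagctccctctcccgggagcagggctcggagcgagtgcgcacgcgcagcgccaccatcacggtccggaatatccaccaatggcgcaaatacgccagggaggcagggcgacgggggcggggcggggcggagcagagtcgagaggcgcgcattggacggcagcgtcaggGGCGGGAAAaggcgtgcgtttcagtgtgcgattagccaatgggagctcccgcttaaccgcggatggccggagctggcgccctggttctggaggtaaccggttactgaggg
MCM7: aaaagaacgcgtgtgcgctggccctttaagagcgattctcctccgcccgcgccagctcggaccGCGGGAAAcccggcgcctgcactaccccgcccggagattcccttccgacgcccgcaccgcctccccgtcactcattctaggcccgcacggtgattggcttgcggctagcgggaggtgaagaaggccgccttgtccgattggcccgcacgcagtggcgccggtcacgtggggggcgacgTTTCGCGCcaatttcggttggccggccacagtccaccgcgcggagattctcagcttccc
GINS2: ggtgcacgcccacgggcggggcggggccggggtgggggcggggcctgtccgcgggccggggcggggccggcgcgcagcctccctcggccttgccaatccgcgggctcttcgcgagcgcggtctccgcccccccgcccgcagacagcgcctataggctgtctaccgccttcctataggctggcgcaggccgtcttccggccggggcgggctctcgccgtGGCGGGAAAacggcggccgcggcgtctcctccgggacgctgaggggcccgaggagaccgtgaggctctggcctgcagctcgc
CHAF1A: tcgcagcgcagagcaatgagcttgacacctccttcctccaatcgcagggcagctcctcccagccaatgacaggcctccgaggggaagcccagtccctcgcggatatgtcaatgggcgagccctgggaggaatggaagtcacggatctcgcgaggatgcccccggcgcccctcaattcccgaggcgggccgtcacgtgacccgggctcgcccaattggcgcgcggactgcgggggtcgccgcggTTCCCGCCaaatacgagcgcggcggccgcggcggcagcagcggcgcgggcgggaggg
The capitals in PCNA and in GINS2 hold 2 overlapping matches, those in MCM7 are 2 separate matches on opposite strands, and CHAF1A has 1. No match was found for RRM2, ORC6, ORC1, CDC45, MCM10, RFC5, POLD1, POLD2, FEN1, TK1, DUT, CHAF1B or SLBP, which says only that these letters are not in this window. A match is a description of the letters and not a mapped binding site.

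Libraries held 1419228 to 5172291 counts in AsPC-1 and 1668713 to 5871860 in PANC-1, and 38 of the 39 genes passed the filter on low counts in each line. The gene left out was MCM2, with 7 counts over all AsPC-1 libraries and 17 over all PANC-1 libraries. Markers of epithelium (KRT8, KRT18, KRT19, EPCAM and CDH1) summed to 2546 to 7715 CPM (counts scaled to a library total of 1000000) in AsPC-1 and to 320.4 to 834.5 CPM in PANC-1. The median of this sum in AsPC-1 was 3506 CPM alone, 5576 CPM with MEK inhibitors and 5707 CPM with ulixertinib. For PANC-1 the same medians were 658.3, 453.5 and 434.5 CPM. Markers of immune cells reached at most 12.9 CPM and those of endothelium at most 2.97 CPM in any library. The 6 fibroblast markers summed to 43.3 to 281.3 CPM in AsPC-1, nearly all of it LUM, and to 24.9 to 120.5 CPM in PANC-1, nearly all of it COL1A1, while COL1A2 and PDGFRB had a median of 0 in both lines. That sum moved with treatment as well: its median was 62.3 CPM alone, 149.6 CPM with MEK inhibitors and 227.3 CPM with ulixertinib for AsPC-1, and 56.1, 80.2 and 65.8 CPM for PANC-1. LUM rose with MEK inhibitors in AsPC-1 (1.27 ± 0.10, edgeR) and COL1A1 in PANC-1 (0.59 ± 0.08, edgeR), on the log2 scale, and their part in the results below was not tested. In AsPC-1, genes of mitochondrial DNA took 31.0% ± 1.24 of counts (SD, n = 12) in the libraries of an autophagy inhibitor alone, 34.4% ± 2.59 (SD, n = 20) with MEK inhibitors and 36.2% ± 1.88 (SD, n = 4) with RAF709. In PANC-1 the class means of that share lay between 22.1% and 23.6%. With those genes left out of the library sizes and scaling factors, the AsPC-1 counts of replication genes called lower were again 30 with MEK inhibitors and 32 with ERK inhibitors. Transcribed regions of TYMS, PRIM1, FEN1, RFC4, RFC5, MCM7, GINS2, CHAF1A, CHAF1B, POLA1 and UHRF1 overlap those of other genes in the table, and whether counting used the strand is not stated.

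MEK inhibitors lowered most of the replication genes in AsPC-1. Of the 38 genes tested, 30 fell and none rose relative to the autophagy inhibitors alone, while 16.1% of all 12761 genes tested fell and 12.9% rose. The median log2 fold change was −0.56 over the replication genes and −0.05 over all genes, and 37 of the 38 values were negative. Here and below, a gene is said to have risen or fallen where the adjusted p of edgeR's quasi-likelihood test, corrected over all genes of that comparison, was under 0.05, and ± after a log2 value is its standard error.

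All 9 licensing genes fell in AsPC-1, with a median of −0.53. ORC6, the smallest subunit of the origin recognition complex (chr16:46689643-46698394, plus strand, GENCODE v29), lay between 72.1 and 79.4 CPM with HCQ alone (median 73.9, n = 6) and between 41.3 and 74.5 CPM with HCQ and a MEK inhibitor (median 56.7, n = 10). With the Vps34 inhibitor it lay between 69.8 and 101.7 CPM alone (median 90.6, n = 6) and between 38.8 and 81.1 CPM with a MEK inhibitor (median 53.7, n = 10). In each arm 9 of 10 libraries with a MEK inhibitor were below the lowest library without one, so the groups overlapped by a single library. The change in ORC6 was −0.53 ± 0.08 (edgeR quasi-likelihood test, adjusted p = 1.48e-07). MCM7, 1 of the 6 subunits of the MCM ring (chr7:100092728-100101940, minus strand), had a median of 74.7 CPM with HCQ alone (70.2 to 81.6) and 52.5 CPM with a MEK inhibitor added (39.3 to 75.3). Its medians with the Vps34 inhibitor were 76.4 CPM alone (60.1 to 82.8) and 50.6 CPM with a MEK inhibitor (35.8 to 76.3). The MCM7 groups overlapped by 2 libraries of 10 with HCQ and 1 of 10 with the Vps34 inhibitor, and the change was −0.49 ± 0.08 (edgeR, adjusted p = 3.34e-06).

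Among the 5 helicase activators, 4 fell, and the exception was GINS3. MCM10, which helps switch the loaded helicase on, changed by −1.005 ± 0.164 (edgeR, adjusted p = 1.34e-06). Of the clamp and its loader, PCNA and 3 of 4 RFC subunits fell, and the exception was RFC2. PCNA (chr20:5114953-5126626, minus strand) ran from 245.2 to 323.1 CPM with HCQ alone (median 278.1) and from 124.5 to 243.2 CPM with a MEK inhibitor (median 174.7). With the Vps34 inhibitor it ran from 347.3 to 420.0 CPM alone (median 384.1) and from 166.4 to 345.5 CPM with a MEK inhibitor (median 211.7). All 20 libraries with a MEK inhibitor were below the lowest library of their own autophagy inhibitor alone, and PCNA changed by −0.69 ± 0.06 (edgeR, adjusted p = 1.72e-14). Genes of the polymerases and primase fell in 3 of 7 cases, POLA2, POLE and POLE2, with POLA2, the regulatory subunit of the primase-polymerase complex, at −0.81 ± 0.17 (edgeR, adjusted p = 0.000118). The catalytic subunit POLD1 had a value of −0.88 ± 0.37 and did not pass (edgeR, adjusted p = 0.0691).

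Both genes that finish the lagging strand fell: the flap nuclease FEN1 changed by −0.91 ± 0.17 (edgeR, adjusted p = 1.22e-05), and the ligase LIG1 passed as well. In the nucleotide group, 4 of 5 genes fell. RRM2, the regulated subunit of ribonucleotide reductase (chr2:10120698-10131419, plus strand), lay between 65.97 and 82.8 CPM with HCQ alone (median 78.4) and between 23.8 and 56.1 CPM with a MEK inhibitor (median 39.4). With the Vps34 inhibitor the RRM2 range was 88.0 to 132.0 CPM alone (median 104.5) and 35.1 to 72.6 CPM with a MEK inhibitor (median 47.5). No library with a MEK inhibitor reached the range of its autophagy inhibitor alone, and the change of −0.95 ± 0.09 had an adjusted p of 2.89e-14 (edgeR). TK1, thymidine kinase of the salvage pathway, had a value of 0.20 ± 0.14 and did not pass. Of the 4 chromatin genes 3 fell, among them SLBP, which binds histone mRNA, at −0.36 ± 0.10 (edgeR, adjusted p = 0.00501), and UHRF1, which carries DNA methylation through replication, did not. E2F1, the transcription factor of the group, changed by −0.85 ± 0.24 (edgeR, adjusted p = 0.00417). It was a low gene, with a median of 7.67 CPM alone and 4.15 CPM with MEK inhibitors.

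In PANC-1, MEK inhibitors lowered 26 of the 38 replication genes and raised none, against 10.6% of all 12627 genes lower and 7.9% higher. The median was −0.52, against −0.02 over all genes, and 36 values were negative. Of the licensing genes 7 of 9 fell, with CDT1 at −0.35 ± 0.13 and MCM6 at −0.30 ± 0.14 not passing. MCM3, another subunit of the MCM ring, ran from 97.3 to 131.4 CPM with HCQ alone (median 105.8) and from 56.6 to 95.7 CPM with a MEK inhibitor (median 63.3). With the Vps34 inhibitor it ran from 69.5 to 90.8 CPM alone (median 85.5) and from 44.2 to 72.3 CPM with a MEK inhibitor (median 54.6). Of 20 libraries with a MEK inhibitor 19 were below the lowest library of their own autophagy inhibitor alone, and MCM3 changed by −0.68 ± 0.06 (edgeR, adjusted p = 5.1e-12). The MCM7 value was −0.58 ± 0.08 (edgeR, adjusted p = 7.84e-08), with medians of 96.4 CPM for HCQ alone and 66.1 CPM with a MEK inhibitor, and of 69.2 and 47.3 CPM with the Vps34 inhibitor. ORC6 changed by −0.40 ± 0.06 (edgeR, adjusted p = 4.6e-06), from a median of 56.4 to 46.4 CPM with HCQ and from 59.2 to 43.4 CPM with the Vps34 inhibitor. For ORC6, 19 of 20 libraries with a MEK inhibitor were under the lowest library of their own autophagy inhibitor alone.

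All 5 helicase activators fell in PANC-1, with MCM10 at −0.68 ± 0.11 (edgeR, adjusted p = 5.21e-06). PCNA changed by −0.37 ± 0.06 (edgeR, adjusted p = 1.28e-05), but its levels in PANC-1 differed between the plates A and B named in the library titles. With HCQ alone its 3 libraries of plate A held 110.8, 118.9 and 120.5 CPM and its 3 libraries of plate B 182.9, 182.6 and 175.6 CPM. With HCQ and a MEK inhibitor PCNA lay between 57.4 and 113.8 CPM on plate A and between 120.9 and 168.8 CPM on plate B. Over both plates these groups overlapped, while within plate B no library with a MEK inhibitor reached the range of HCQ alone and within plate A 1 did. CHAF1A fell by 0.69 ± 0.10 on the log2 scale (edgeR, adjusted p = 4.02e-07), FEN1 by 0.64 ± 0.10 (adjusted p = 7.82e-07), POLA2 by 0.73 ± 0.13 (adjusted p = 2.14e-05) and E2F1 by 0.62 ± 0.14 (adjusted p = 0.00106). The nucleotide group stood at 1 of 5: RRM1, the large subunit of ribonucleotide reductase, fell by 0.41 ± 0.09 (edgeR, adjusted p = 0.000574). The other four did not pass, with RRM2 at −0.08 ± 0.06, TYMS, the enzyme that makes thymidylate, at 0.08 ± 0.13, TK1 at −0.03 ± 0.08 and DUT, which clears dUTP, at −0.10 ± 0.08.

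Between the lines, 22 genes fell with MEK inhibitors in both, which is 73.3% of the 30 in AsPC-1 and 84.6% of the 26 in PANC-1. CDT1, DUT, LIG1, MCM6, RFC5, RRM2, SLBP and TYMS were called lower in AsPC-1 and not in PANC-1, and GINS3, PRIM1, RFC2 and UHRF1 in PANC-1 and not in AsPC-1. When the difference itself was tested in a fit of both lines, the change was less negative in PANC-1 for 4 replication genes and more negative for none, against 6.08% and 5.29% of all 13960 genes. RRM2 differed by 0.87 ± 0.11 (edgeR, adjusted p = 2.72e-10) and PCNA by 0.33 ± 0.09 (edgeR, adjusted p = 0.00678). With replicate 2 of every drug group left out, 1 of those 4 line differences remained called.

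**Figure D1:**
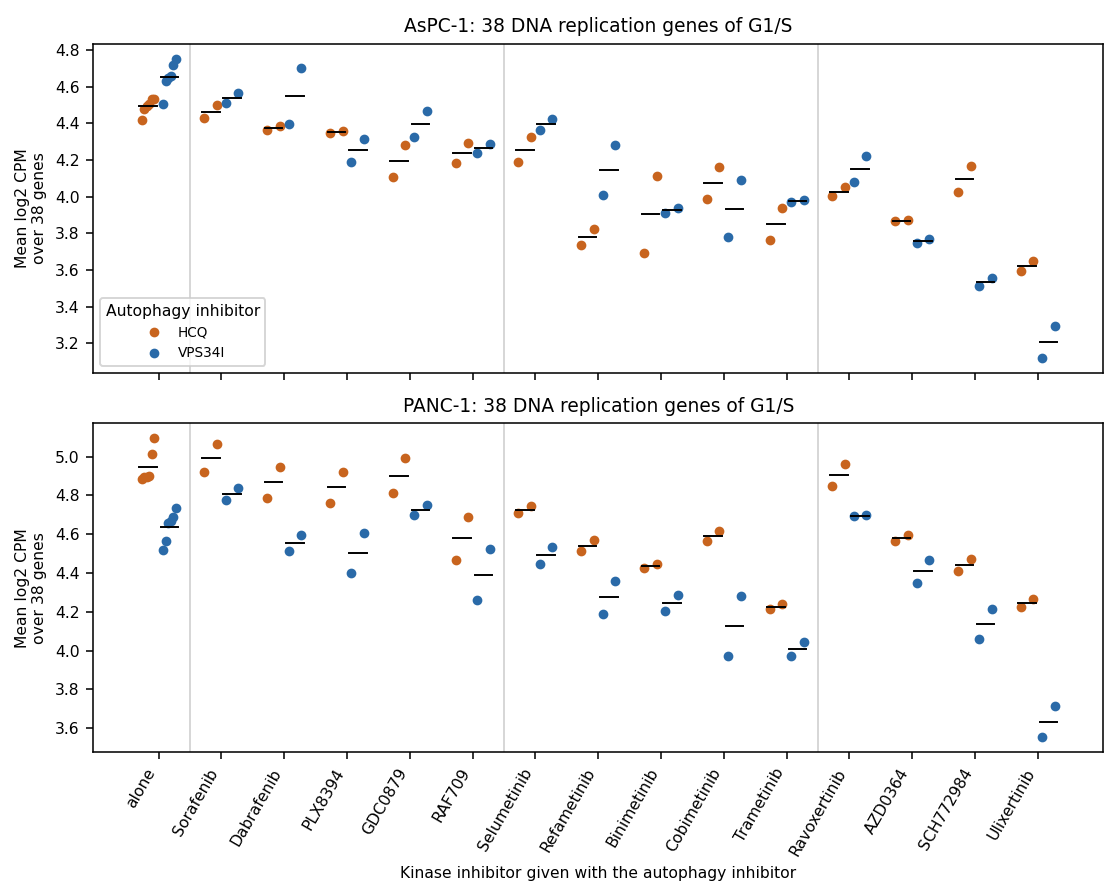
Mean log2 CPM over the 38 replication genes tested (vertical axis) in each library, by treatment along the horizontal axis, with AsPC-1 and PANC-1 apart, the autophagy inhibitor marked by colour (VPS34I is the Vps34 inhibitor) and a bar at each group mean. In AsPC-1 the libraries of an autophagy inhibitor alone lie between 4.42 and 4.75 and those of ulixertinib between 3.12 and 3.65, and in PANC-1 the ravoxertinib libraries lie between 4.69 and 4.96 while ulixertinib reaches down to 3.55.

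ERK inhibitors, 4 drugs in AsPC-1, lowered 32 of 38 replication genes there and raised none (17.4% and 13.7% of all genes), with a median of −0.89 against −0.06 over all genes. Every one of the 38 values was negative. PCNA with HCQ and SCH772984, AZD0364 or ravoxertinib lay between 165.0 and 185.3 CPM (median 171.7, n = 6), and with the Vps34 inhibitor between 116.5 and 258.6 CPM (median 167.6, n = 6). All these libraries were below the lowest library of the same autophagy inhibitor alone, and PCNA changed by −1.05 ± 0.07 over the 4 drugs (edgeR, adjusted p = 7.21e-21). RRM2 had medians of 41.0 CPM with HCQ (24.2 to 54.5) and 32.2 CPM with the Vps34 inhibitor (25.7 to 50.6) under the same 3 drugs, again without overlap, and changed by −1.42 ± 0.09 (edgeR, adjusted p = 3.07e-20). MCM7 changed by −1.05 ± 0.09 (edgeR, adjusted p = 4.32e-15), and with the Vps34 inhibitor its levels of 25.5 to 33.3 CPM under the same 3 drugs were all below the lowest of 60.1 CPM without them.

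By role, 8 of 9 licensing genes, 4 of 5 helicase activators, 5 of 5 clamp and loader genes, 5 of 7 polymerase and primase genes and 4 of 5 nucleotide genes fell with ERK inhibitors in AsPC-1. GINS2 changed by −1.13 ± 0.11 (edgeR, adjusted p = 8.58e-13), ORC6 by −0.68 ± 0.08 (adjusted p = 9.95e-10), CHAF1A by −0.77 ± 0.13 (adjusted p = 4.58e-06) and POLE2, a subunit of the leading-strand polymerase, by −1.08 ± 0.19 (adjusted p = 5.9e-06). FEN1 stood at −0.91 ± 0.18 (edgeR, adjusted p = 3.04e-05) and E2F1 at −0.9999 ± 0.256 (adjusted p = 0.00152). The 6 genes that did not pass were ORC1, POLD1, GINS3, POLA1, UHRF1 and TK1, of which TK1 had the value nearest 0, at −0.13 ± 0.14. A direct comparison of the ERK with the MEK drugs in AsPC-1, which uses no library of an autophagy inhibitor alone, gave 7 genes lower and none higher with ERK drugs (0.494% and 0.251% of all genes), with a median of −0.21. MCM7 was lower by 0.56 ± 0.08 (edgeR, adjusted p = 3.33e-05), PCNA had a value of −0.35 ± 0.06 (adjusted p = 0.000263), RRM2 −0.47 ± 0.08 (adjusted p = 0.000666) and GINS2 −0.52 ± 0.10 (adjusted p = 0.00296). That count was 1 without ulixertinib and 11 without ravoxertinib.

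In PANC-1, SCH772984, AZD0364 and ravoxertinib together lowered 15 of the 38 genes (6.1% of all genes) and raised 1 (4.13%), with a median of −0.27 against −0.02 over all genes. MCM3 with these drugs lay between 58.3 and 98.4 CPM with HCQ (median 73.1) and between 45.9 and 73.9 CPM with the Vps34 inhibitor (median 57.5). These ranges overlapped those of the autophagy inhibitors alone, and MCM3 changed by −0.55 ± 0.07 (edgeR, adjusted p = 9.29e-08). CHAF1A changed by −0.67 ± 0.11 (edgeR, adjusted p = 1.38e-05), MCM7 by −0.49 ± 0.09 (adjusted p = 4.2e-05), GINS2 by −0.55 ± 0.11 (adjusted p = 0.000218) and E2F1 by −0.66 ± 0.16 (adjusted p = 0.00406). RFC4 of the clamp loader stood at −0.46 ± 0.12 (adjusted p = 0.00763) and PRIM1, the catalytic primase subunit, at −0.94 ± 0.26 (adjusted p = 0.0113). PCNA at −0.25 ± 0.07 (adjusted p = 0.0157) and ORC6 at −0.25 ± 0.07 (adjusted p = 0.0172) also fell. The 1 gene that rose was RRM2, at 0.20 ± 0.07 (edgeR, adjusted p = 0.0498), and without ravoxertinib its value was −0.06. Called genes numbered 6 in place of 16 without SCH772984.

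The 3 drugs gave different values in PANC-1, and they were not tested against each other. SCH772984 lowered 18 genes (median −0.46), AZD0364 lowered 8 (median −0.31) and ravoxertinib lowered none and raised RRM2 (median −0.03), against 4.01%, 2.97% and 2.57% of all genes lower and, with ravoxertinib, 1.8% higher. At an unadjusted p under 0.05, ravoxertinib had 4 genes lower and 4 higher in the edgeR test. Here and below, counts at an unadjusted p have no share over all genes beside them, and some genes pass that threshold by chance. RRM2 held 144.5 and 146.6 CPM with HCQ and SCH772984, 217.9 and 191.9 CPM with HCQ and AZD0364, and 276.6 and 335.9 CPM with HCQ and ravoxertinib, where HCQ alone gave 157.4 to 181.6 CPM. With the Vps34 inhibitor the same 3 drugs gave 118.1 and 125.2, then 174.1 and 202.2, then 262.4 and 266.9 CPM, where that inhibitor alone gave 133.8 to 204.3 CPM. In both arms the SCH772984 libraries were therefore below, and the ravoxertinib libraries above, every library of that arm without a kinase inhibitor. PCNA with HCQ and ravoxertinib was 122.5 CPM on plate A and 229.5 CPM on plate B, above the highest HCQ alone library of each plate. The known output genes of ERK, which include DUSP6, SPRY4 and PHLDA1, had medians of −2.02 with SCH772984, −1.88 with AZD0364 and −1.14 with ravoxertinib over 8 genes tested, and 8, 8 and 5 of them fell. Whether that gap in ERK output plays a part in the gap in the replication genes was not tested.

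Against the MEK drugs, the 3 ERK drugs of PANC-1 left 4 genes higher and none lower (0.42% and 0.396% of all genes), with a median of 0.15: FEN1 at 0.46 ± 0.10 (edgeR, adjusted p = 0.00797), RRM2 at 0.28 ± 0.06 (adjusted p = 0.014), CHAF1B at 0.42 ± 0.10 (adjusted p = 0.0209) and GINS1 at 0.43 ± 0.11 (adjusted p = 0.0448). No gene was called in that comparison once ravoxertinib, or trametinib, was left out. Of the genes that fell with ERK inhibitors, 14 were shared by the lines, 43.8% of 32 in AsPC-1 and 93.3% of 15 in PANC-1. The AsPC-1 list included ulixertinib and the PANC-1 list did not, so these shares do not compare the lines under the same drugs. With ulixertinib left out of both lines, the ERK effect was less negative in PANC-1 for 10 genes and more negative for none (6.68% and 5.61% of all genes). RRM2 differed by 1.43 ± 0.12 (edgeR, adjusted p = 2.5e-17) and PCNA by 0.66 ± 0.10. This count was 6 without replicate 3 of the PANC-1 libraries of HCQ alone or of the Vps34 inhibitor alone, and 4 or 3 when 1 of the 2 libraries of every drug group was left out.

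**Figure D2:**
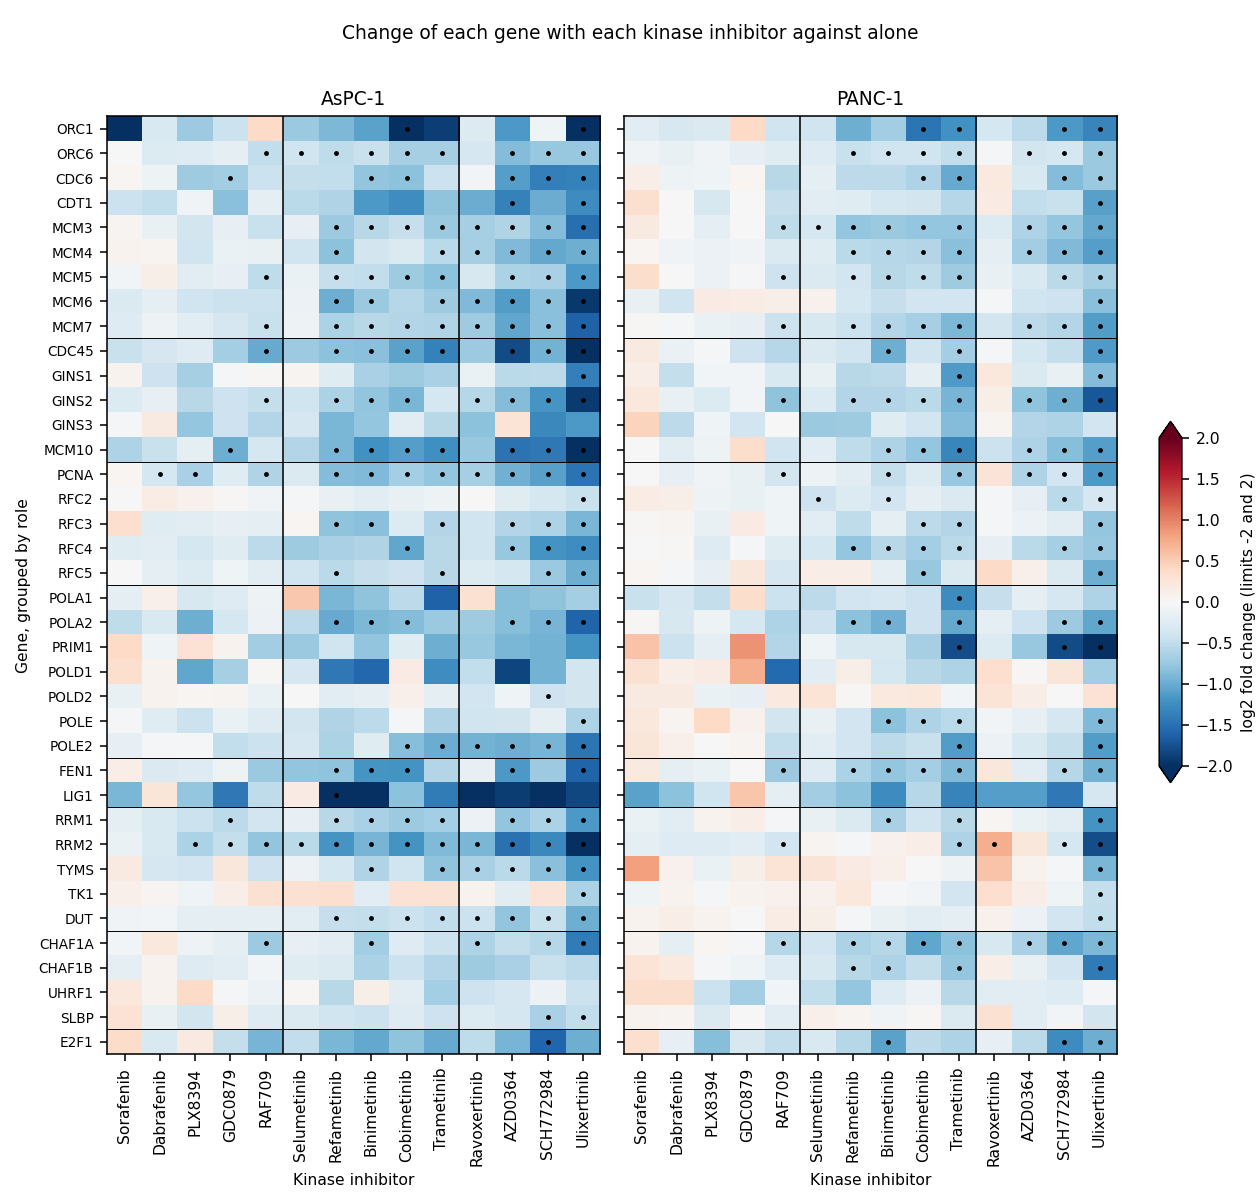
Log2 fold change of each of the 38 replication genes (rows) with each of the 14 drugs against the autophagy inhibitors alone (columns), in AsPC-1 and PANC-1, with colours limited to −2 and 2 and a dot where the gene passed the test. The ulixertinib column is the darkest on the lower side in both lines, with medians of −1.20 and −0.91, and the sorafenib columns are near 0, with medians of −0.04 and 0.10.

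Ulixertinib gave the lowest median of the 14 drugs over the replication genes in both lines. In AsPC-1 it lowered 29 of 38 genes (10.9% of all genes), with a median of −1.20, and in PANC-1 31 genes (7.88%), with a median of −0.91. It raised none in either line, where 10.4% and 6.72% of all genes rose. PCNA in AsPC-1 held 136.3 and 104.2 CPM with HCQ and ulixertinib and 103.8 and 110.2 CPM with the Vps34 inhibitor and ulixertinib, all below the lowest library of the same autophagy inhibitor alone. In PANC-1 it held 61.8 and 71.1 CPM with HCQ and 42.0 and 51.6 CPM with the Vps34 inhibitor. The PCNA change was −1.48 ± 0.11 in AsPC-1 (edgeR, adjusted p = 4.19e-17) and −1.14 ± 0.11 in PANC-1 (edgeR, adjusted p = 1.47e-11). RRM2 in AsPC-1 fell to 32.7 and 24.3 CPM with HCQ and to 20.4 and 12.9 CPM with the Vps34 inhibitor, and its change was −1.996 ± 0.160 (edgeR, adjusted p = 1.01e-15). In PANC-1, where neither the MEK drugs nor the other ERK drugs as a class lowered RRM2, ulixertinib gave 66.8 and 58.2 CPM with HCQ and 39.4 and 40.9 CPM with the Vps34 inhibitor. Those 4 values were below every other RRM2 library quoted for PANC-1, and the change was −1.77 ± 0.11 (edgeR, adjusted p = 2.52e-17).

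All 9 licensing genes and all 5 nucleotide genes fell with ulixertinib in both lines, with medians of −1.35 and −1.15 in AsPC-1 and −1.02 and −0.92 in PANC-1. MCM7 held 30.8 and 32.4 CPM with HCQ and 11.1 and 22.9 CPM with the Vps34 inhibitor in AsPC-1, where the lowest library without a kinase inhibitor held 60.1 CPM. Its change was −1.62 ± 0.15 in AsPC-1 (edgeR, adjusted p = 4.78e-13) and −1.12 ± 0.13 in PANC-1 (edgeR, adjusted p = 8.15e-09). GINS2 held 13.0 and 20.1 CPM with HCQ and 3.83 and 5.49 CPM with the Vps34 inhibitor in AsPC-1, against 25.9 CPM or more in every AsPC-1 library alone. The GINS2 change was −1.91 ± 0.20 in AsPC-1 (edgeR, adjusted p = 1.36e-11) and −1.69 ± 0.18 in PANC-1 (edgeR, adjusted p = 3.55e-10). CDC45, its partner in the active helicase, reached 0.851 and 0.323 CPM with the Vps34 inhibitor and ulixertinib in AsPC-1, where that inhibitor alone gave 8.65 to 20.3 CPM. PRIM1 in PANC-1 showed the most negative value there, −2.86 ± 0.50 (edgeR, adjusted p = 2.83e-05), from 1.05 and 1.66 CPM with HCQ and 0.222 and 0.382 CPM with the Vps34 inhibitor. These lowest CDC45 and PRIM1 levels rest on very few counts, so the size of the change is uncertain. Over all libraries of the line, CDC45 in AsPC-1 had a median of 30.5 counts and a minimum of 1. For PRIM1 in PANC-1 the median was 12 counts and the minimum 1.

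Among the remaining groups, FEN1 changed by −1.60 ± 0.30 in AsPC-1 and −0.95 ± 0.16 in PANC-1 with ulixertinib, and ORC6 by −0.76 ± 0.13 and −0.74 ± 0.11. CHAF1A had a value of −1.41 ± 0.23 in AsPC-1 (edgeR, adjusted p = 2.13e-06). CHAF1B, the middle subunit of chromatin assembly factor 1, stood at −1.42 ± 0.17 in PANC-1 (edgeR, adjusted p = 1.37e-08), with 5.69 and 12.6 CPM for HCQ and 9.78 and 8.41 CPM for the Vps34 inhibitor against 18.2 CPM or more alone. Of the called genes, 28 were common to the lines, 96.6% of the 29 and 90.3% of the 31. The ulixertinib effect differed between the lines for 6 genes, 5 less negative in PANC-1 (3.55% of all genes) and 1 more negative (3.41%). MCM10 differed by 1.70 ± 0.37, MCM6 by 1.10 ± 0.34 and CHAF1B by −0.88 ± 0.29, and 0 or 1 gene remained called when 1 library of every drug group was left out.

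Set directly against the other ERK inhibitors, ulixertinib lowered 18 genes in PANC-1 (4.15% of all genes) and 7 in AsPC-1 (0.298%), and raised none (3.54% and 0.165%). Medians were −0.60 in PANC-1 and −0.52 in AsPC-1. In PANC-1, RRM2 differed by −1.97 ± 0.11 (edgeR, adjusted p = 2.13e-18), PCNA by −0.90 ± 0.11 (adjusted p = 1.29e-08), CHAF1B by −1.29 ± 0.17 (adjusted p = 2.54e-07) and GINS2 by −1.13 ± 0.18 (adjusted p = 6.68e-06). MCM7, FEN1, ORC6 and POLE also differed, at −0.63 ± 0.13, −0.76 ± 0.16, −0.49 ± 0.11 and −0.69 ± 0.19. In AsPC-1, PCNA differed by −0.57 ± 0.10 (edgeR, adjusted p = 0.00352), GINS2 by −1.03 ± 0.20 (adjusted p = 0.0048), MCM7 by −0.76 ± 0.15 (adjusted p = 0.0048) and RRM2 by −0.77 ± 0.15 (adjusted p = 0.00584). The AsPC-1 count was 0 with only the compared groups in the fit and 0 without ravoxertinib. In PANC-1 the genes of G2 and mitosis, such as CCNB1 and CDK1, moved in the same direction. Of these 26 genes, 25 were lower with ulixertinib than with the other ERK drugs (median −1.33). The 8 ERK output genes had a median of −0.12 in that contrast. Whether ERK output plays a part in the gap between ulixertinib and the other ERK drugs was not tested. In AsPC-1, 2 of the 26 genes of G2 and mitosis were lower. That contrast called 0.298% of all genes lower, against 4.15% in PANC-1, so the 2 counts are not on an equal footing.

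**Figure D3:**
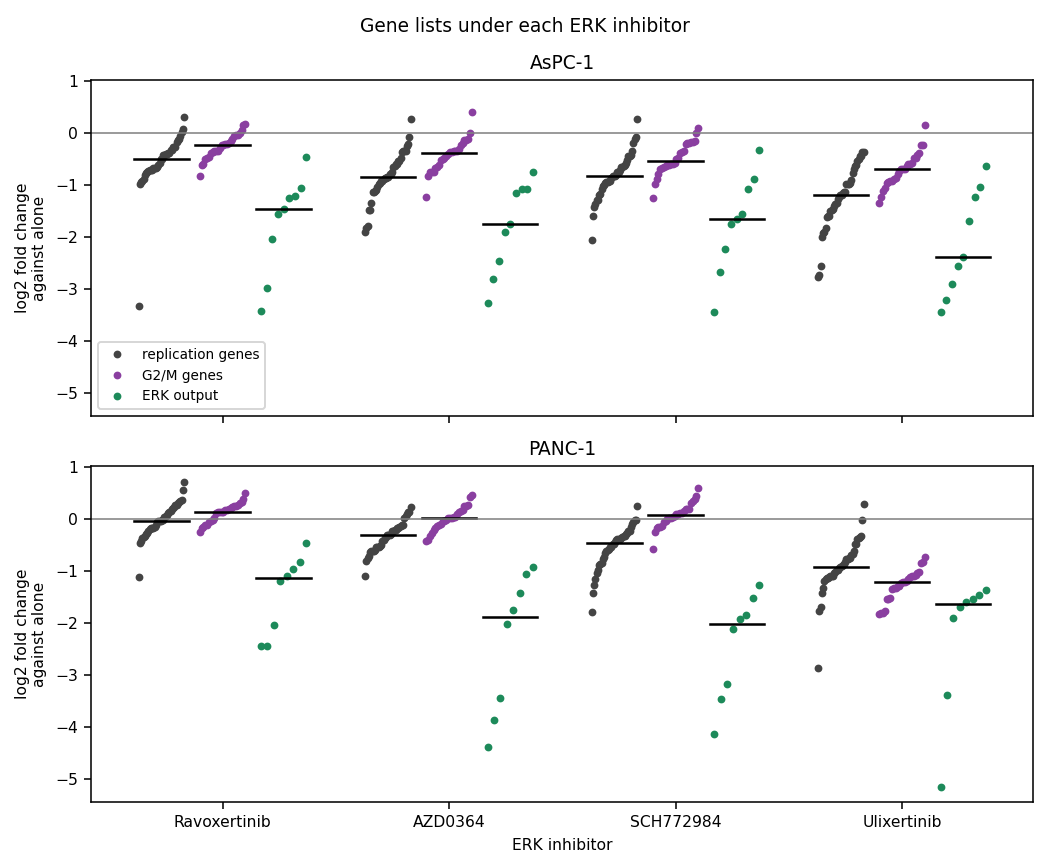
Log2 fold change against the autophagy inhibitors alone (vertical axis) of the replication genes, the genes of G2 and mitosis (G2/M) and the ERK output genes under each ERK inhibitor, with 1 point per gene and a bar at each median, in AsPC-1 and PANC-1. In PANC-1 the ERK output genes lie low under SCH772984, AZD0364 and ulixertinib (medians −2.02, −1.88 and −1.64), whereas the genes of G2 and mitosis lie low under ulixertinib (median −1.22).

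RAF709 lowered 8 of the 38 genes in each line and raised none, against 6.1% of all genes lower and 6.57% higher in AsPC-1 and 4.42% lower and 4.05% higher in PANC-1, with medians of −0.40 and −0.37. Of the 8, 6 were common to the lines: CHAF1A, GINS2, MCM5, MCM7, PCNA and RRM2. PCNA in AsPC-1 held 150.3 and 197.9 CPM with HCQ and RAF709 and 218.5 and 287.4 CPM with the Vps34 inhibitor, all below the lowest library of the same autophagy inhibitor alone, and changed by −0.60 ± 0.10 (edgeR, adjusted p = 9.68e-06). RRM2 in AsPC-1 held 35.6 and 41.5 CPM with HCQ and 67.3 and 60.9 CPM with the Vps34 inhibitor, also without overlap, and changed by −0.80 ± 0.14 (edgeR, adjusted p = 2.83e-05). ORC6, CDC45, CHAF1A and MCM7 fell in AsPC-1 by 0.50 ± 0.13, 1.01 ± 0.29, 0.73 ± 0.21 and 0.45 ± 0.14. In PANC-1, MCM3 changed by −0.51 ± 0.11 (edgeR, adjusted p = 0.000663), GINS2 by −0.80 ± 0.17 (adjusted p = 0.000739), FEN1 by −0.73 ± 0.16 (adjusted p = 0.00144), RRM2 by −0.38 ± 0.10 (adjusted p = 0.00863), PCNA by −0.37 ± 0.10 (adjusted p = 0.015) and CHAF1A by −0.57 ± 0.16 (adjusted p = 0.0201). With 1 of the 2 libraries of each drug group left out, the RAF709 count was 3 in AsPC-1 and 1 or 2 in PANC-1.

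The other 4 RAF inhibitors together lowered 5 genes in AsPC-1 (2.47% of all genes), with a median of −0.18, and none in PANC-1 (0.0396%), with a median of −0.04. PCNA in AsPC-1 changed by −0.30 ± 0.06 (edgeR, adjusted p = 0.00188), RRM2 by −0.39 ± 0.09 (adjusted p = 0.00377) and MCM10 by −0.56 ± 0.17 (adjusted p = 0.046). PCNA held 179.5 and 254.5 CPM with HCQ and PLX8394, 243.9 and 239.5 CPM with dabrafenib, 230.6 and 273.8 CPM with GDC-0879 and 283.3 and 362.1 CPM with sorafenib. The sorafenib pair reached or passed the 245.2 to 323.1 CPM of HCQ alone, while the other three drugs had at least 1 library below it. The AsPC-1 count was 2 without replicate 1 of the Vps34 inhibitor alone and 3 without its replicate 5 or without replicate 1, 3 or 6 of HCQ alone. In PANC-1, 1 gene was lower at an unadjusted p under 0.05 in the edgeR test, and DESeq2 called none.

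**Figure D4:**
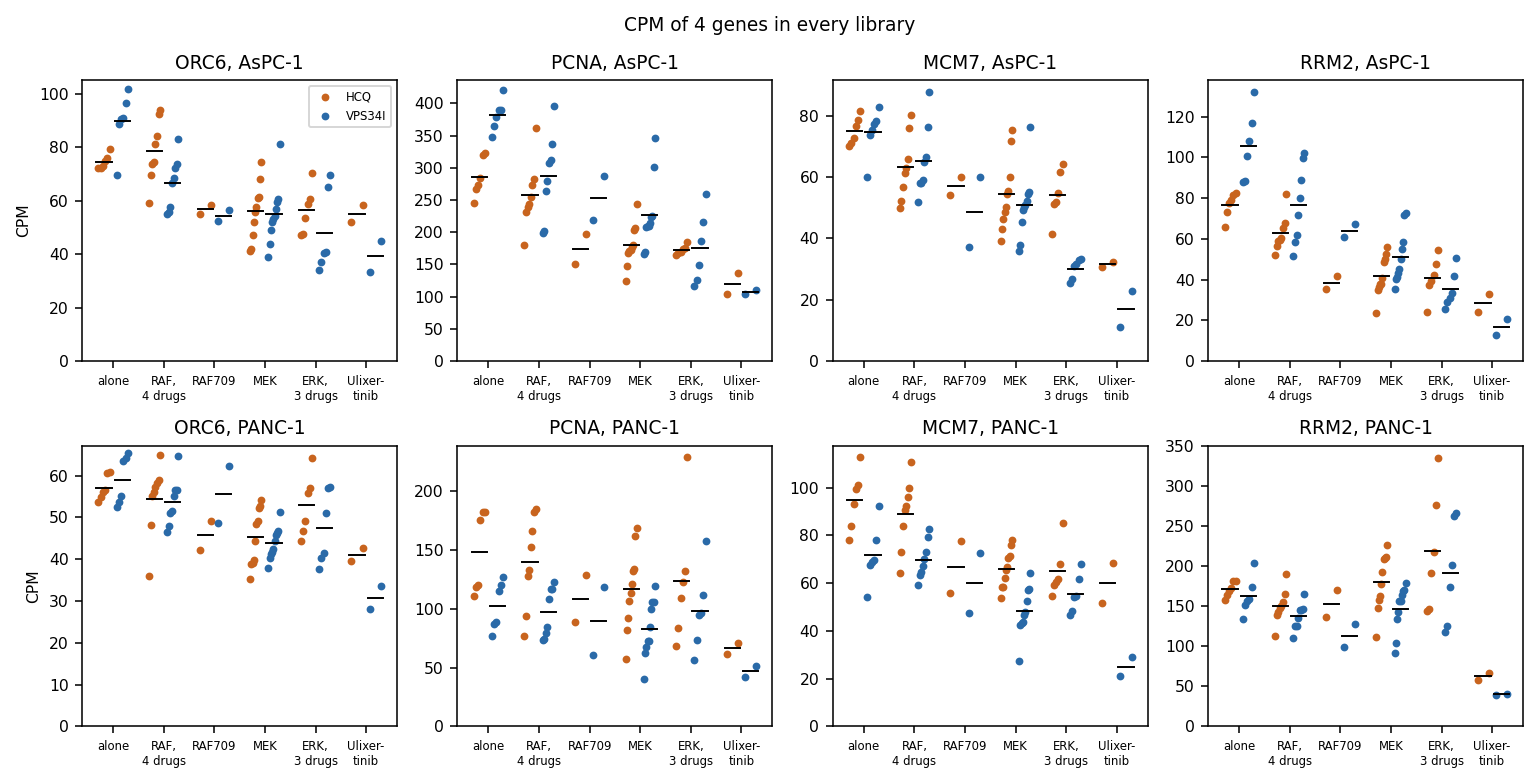
CPM of 4 replication genes in every library (vertical axis) by class of kinase inhibitor (horizontal axis), with HCQ and the Vps34 inhibitor (VPS34I) in different colours, bars at the means and the lines in separate panels. RRM2 shows the difference between the lines: with MEK inhibitors it lies between 23.8 and 72.6 CPM in AsPC-1, below the libraries alone of the same autophagy inhibitor, and between 91.1 and 226.5 CPM in PANC-1, across the range of the libraries alone.

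Ordered by the median over the 38 genes, the AsPC-1 drugs after ulixertinib were AZD0364 (−0.85, 21 genes lower, 9.02% of all genes), SCH772984 (−0.83, 24 genes, 9.04%), and binimetinib (−0.68, 18 genes, 7.59%). They were followed by trametinib (−0.67, 16 genes, 7.6%), refametinib (−0.63, 18 genes, 8.49%), cobimetinib (−0.58, 17 genes, 8.09%) and ravoxertinib (−0.50, 11 genes, 7.27%). RAF709 came next, then selumetinib (−0.31, 2 genes, 3.64%), PLX8394 (−0.30, 2 genes, 0.4%), GDC-0879 (−0.23, 4 genes, 5.12%), dabrafenib (−0.15, 1 gene, 1.61%) and sorafenib (−0.04, no gene, 0.0157%). Between selumetinib and the other 4 MEK drugs, PCNA showed the gap by library: 206.9 and 243.2 CPM with HCQ and 301.5 and 345.5 CPM with the Vps34 inhibitor under selumetinib, against at most 203.7 and 225.5 CPM under the others. For sorafenib in AsPC-1, 2 genes were lower at an unadjusted p under 0.05 in the edgeR test, and DESeq2 called none. The single dabrafenib call was lost without replicate 2 or 4 of HCQ alone, or without replicate 1, 2, 4 or 5 of the Vps34 inhibitor alone. The selumetinib count went from 2 to 1 when replicate 1, 2, 3 or 6 of either autophagy inhibitor alone, replicate 5 of HCQ or replicate 4 of the Vps34 inhibitor was left out.

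In PANC-1 the order after ulixertinib was trametinib (−0.69, 24 genes lower, 7.49% of all genes), binimetinib (−0.52, 18 genes, 3.96%), SCH772984 (−0.46, 18 genes), cobimetinib (−0.46, 15 genes, 4.43%), refametinib (−0.42, 11 genes, 3.49%), RAF709, AZD0364 (−0.31, 8 genes) and selumetinib (−0.24, 2 genes, 2.06%). PLX8394, dabrafenib, ravoxertinib, GDC-0879 and sorafenib lowered none, with medians of −0.12, −0.09, −0.03, 0.00 and 0.10 and 0.0475%, 0.0238%, 2.57%, 0.127% and 0.0317% of all genes lower. At an unadjusted p under 0.05 in the edgeR test, the genes lower numbered 2 with PLX8394, 2 with dabrafenib, 2 with GDC-0879 and 0 with sorafenib, and the genes higher 1, 0, 2 and 2. The higher genes with sorafenib were TYMS, at 0.82 ± 0.20 (adjusted p = 0.117), and MCM5, at 0.35 ± 0.11 (adjusted p = 0.416). For TYMS, the 2 libraries of sorafenib with the Vps34 inhibitor were far apart, as given under the other observations. DESeq2 called 1 gene higher with sorafenib, as edgeR did without replicate 1 of the Vps34 inhibitor alone, and none with PLX8394, dabrafenib or GDC-0879. Trametinib was the one MEK drug that lowered RRM2 in PANC-1, with 112.2 and 147.4 CPM for HCQ and 91.1 and 104.2 CPM for the Vps34 inhibitor, all below the libraries of the same autophagy inhibitor alone. The drug effects were not independent of each other, since they share the libraries alone, and neighbours in these orders were not tested against each other. The PANC-1 selumetinib count went from 2 to 1 without replicate 3, 4 or 6 of HCQ alone, or without replicate 1, 2, 3, 4 or 6 of the Vps34 inhibitor alone.

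Counted over drugs, RRM2 fell with 12 of 14 drugs in AsPC-1 and with 4 in PANC-1, where it also rose with 1. PCNA fell with 11 drugs in AsPC-1 and 6 in PANC-1, MCM7 with 9 and 8, and ORC6 with 9 and 7. MCM3 fell with 9 drugs in PANC-1, the highest number there, and with 8 in AsPC-1. GINS3, POLD1 and UHRF1 were not called with any drug in either line. These are low genes, with 1973, 1315 and 2874 counts over the libraries of both lines, against 81293 for PCNA and 53619 for RRM2. Some other low genes were called: ORC1, with 1486 counts, fell with 2 drugs in AsPC-1 and 4 in PANC-1. LIG1, with 705 counts, fell with 1 drug in AsPC-1 and none in PANC-1. Whether low counts play a part was not tested. GINS3 and UHRF1 did fall with the MEK inhibitors as a class in PANC-1. TYMS and TK1 fell with 6 and 1 drugs in AsPC-1 and with 1 drug each in PANC-1, and that drug was ulixertinib.

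The effect of the kinase inhibitors was also measured separately in the 2 autophagy arms, which share no library. In AsPC-1, MEK inhibitors lowered 22 genes with HCQ (9.3% of all genes) and 20 with the Vps34 inhibitor (10.4%), with medians of −0.59 in both arms, and 15 genes were shared (68.2% and 75% of the 2 lists). ERK inhibitors lowered 18 with HCQ (9.18%, median −0.66) and 29 with the Vps34 inhibitor (13.5%, median −1.01), and 17 were shared (94.4% and 58.6%). SCH772984 showed the widest gap between the arms, with medians of −0.40 with HCQ and −1.19 with the Vps34 inhibitor, followed by ulixertinib with −0.85 and −1.51. In PANC-1, MEK inhibitors lowered 22 genes with HCQ (6.08%) and 17 with the Vps34 inhibitor (6.28%), with 14 shared (63.6% and 82.4%), and the 3 ERK inhibitors lowered 9 (3.51%) and 6 (3.21%), with CHAF1A, MCM3, MCM4 and MCM7 in both. The ERK count with the Vps34 inhibitor was 2 without replicate 1 of that inhibitor alone. The difference between the arms was tested for the mean effect of all MEK and ERK drugs, which included ulixertinib only in AsPC-1. Gaps of the ERK inhibitors or of single drugs were not tested by themselves. In the test of the mean effect, edgeR called no replication gene in either line (AsPC-1 0.212% and PANC-1 0% of all genes). At an unadjusted p under 0.05, 7 genes were lower in AsPC-1 and 1 was higher in PANC-1, and DESeq2 called none. In AsPC-1, 1 gene was called without replicate 2 of the Vps34 inhibitor alone.

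Without a kinase inhibitor, the values of the replication genes for the Vps34 inhibitor against HCQ leaned in opposite directions in the 2 lines, with few genes called. In PANC-1, 6 genes were lower with the Vps34 inhibitor than with HCQ and none higher (1.18% and 1.31% of all genes), with a median of −0.32 against 0.00 over all genes, and 34 of 38 values were negative. In AsPC-1, 3 genes were higher and none lower (3.21% and 2.72%), with a median of 0.19 against 0.01, and 30 of 38 values were positive. In that line 1 gene was lower at an unadjusted p under 0.05 in the edgeR test, and DESeq2 called 3 genes in either direction.

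PCNA showed it by library. In AsPC-1, it ran from 245.2 to 323.1 CPM with HCQ alone and from 347.3 to 420.0 CPM with the Vps34 inhibitor alone, so all 6 libraries of the second group were above all 6 of the first. The difference was 0.49 ± 0.10 (edgeR, adjusted p = 0.000536). In PANC-1, the Vps34 inhibitor alone gave 87.0, 88.7 and 76.5 CPM on plate A and 115.2, 126.8 and 120.0 CPM on plate B, below the HCQ libraries of the same plate given above, and the difference was −0.54 ± 0.10 (edgeR, adjusted p = 0.000648). The other genes higher in AsPC-1 were RRM2, at 0.54 ± 0.14 (edgeR, adjusted p = 0.0066), and DUT, at 0.40 ± 0.11. In PANC-1, CDC45 was lower by 0.95 ± 0.20 (edgeR, adjusted p = 0.00416), GINS2 by 0.68 ± 0.15, TK1 by 0.53 ± 0.13 (adjusted p = 0.0192), MCM3 by 0.39 ± 0.10 (adjusted p = 0.023) and SLBP by 0.55 ± 0.16 (adjusted p = 0.0477). GINS2 lay between 29.4 and 40.2 CPM with HCQ alone and between 18.3 and 26.1 CPM with the Vps34 inhibitor alone in PANC-1, without overlap. DUT there lay between 187.3 and 223.3 CPM and between 161.9 and 183.4 CPM, also without overlap, though it was not among the 6 genes called. The difference between the lines was called for 5 genes, all more negative in PANC-1 (1.35% of all genes): PCNA by −1.03 ± 0.14 (edgeR, adjusted p = 4.73e-07), GINS2 by −0.89 ± 0.22, DUT by −0.69 ± 0.16 and MCM5 by −0.64 ± 0.19 (adjusted p = 0.0406) were among them. That count was 3 without replicate 3 of the AsPC-1 libraries of the Vps34 inhibitor alone, and the PANC-1 count was 3 with replicate 1 or replicate 2 of every drug group left out of the fit.

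**Figure D5:**
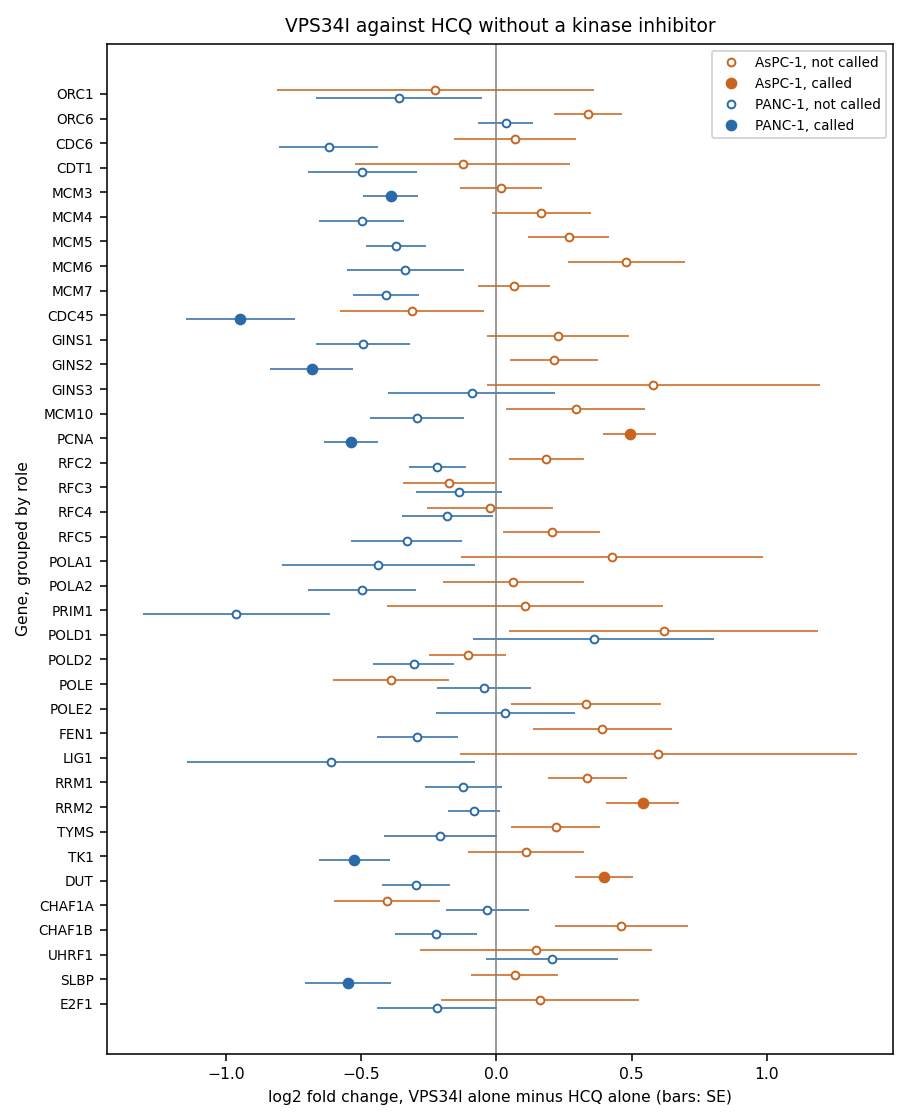
Log2 difference between the Vps34 inhibitor alone and HCQ alone (horizontal axis, with bars for the standard error) for each of the 38 replication genes, coloured by line, with filled points for genes that passed the test. The AsPC-1 points lie mostly to the right of 0 (30 of 38) and the PANC-1 points mostly to its left (34 of 38), with PCNA at 0.49 and −0.54.

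The same contrast under MEK and ERK inhibitors uses other libraries. It included ulixertinib in AsPC-1 but not in PANC-1, so the counts of the lines below are not for the same drugs. In PANC-1, 14 genes were lower with the Vps34 inhibitor and none higher (5.94% and 5.37% of all genes), with a median of −0.27. CDC45, GINS2, MCM3, PCNA and TK1 were lower both alone and under the kinase inhibitors, 83.3% of the 6 and 35.7% of the 14. PCNA had a value of −0.44 ± 0.06 (edgeR, adjusted p = 8.14e-07), MCM3 −0.35 ± 0.06 (adjusted p = 8.72e-05), GINS2 −0.53 ± 0.10 (adjusted p = 0.000107), FEN1 −0.52 ± 0.09 (adjusted p = 0.000119) and TK1 −0.42 ± 0.08 (adjusted p = 0.000237). In AsPC-1 under the kinase inhibitors, 8 genes were lower and 4 higher (12.8% and 10.6% of all genes), with a median of −0.02. The number higher was near that share of all genes, so it is not a trait of the replication genes. PCNA stayed higher with the Vps34 inhibitor, at 0.28 ± 0.06 (edgeR, adjusted p = 0.000184), as did DUT at 0.24 ± 0.06 (adjusted p = 0.00319), with MCM6 at 0.43 ± 0.13 (adjusted p = 0.0117) and POLD1 at 0.98 ± 0.37 (adjusted p = 0.0477). TYMS was lower by 0.46 ± 0.10 (edgeR, adjusted p = 0.00029), CDC45 by 0.75 ± 0.18 (adjusted p = 0.00129), MCM7 by 0.30 ± 0.08 (adjusted p = 0.00315), E2F1 by 0.75 ± 0.24 (adjusted p = 0.0147) and POLD2 by 0.23 ± 0.08 (adjusted p = 0.0411), besides CDC6, RFC2 and TK1. With only the compared groups in the fit, the AsPC-1 count was 6 in place of 12. Beside this, 21 of 26 genes of G2 and mitosis were lower with the Vps34 inhibitor under the kinase inhibitors in AsPC-1 (median −0.44) and 11 in PANC-1 (median −0.19).

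Beyond the 39 genes, 45 further genes of replication and G1/S were followed, such as the helicase relative MCM8 and the nuclease EXO1. With MEK inhibitors 19 of them fell and none rose in AsPC-1 (median −0.41) and 16 fell in PANC-1 (median −0.26). Of all genes, 16.1% fell and 12.9% rose in AsPC-1, and 10.6% fell in PANC-1. MCM8 changed by −0.63 ± 0.09 and EXO1 by −0.91 ± 0.14 in AsPC-1, and EXO1 by −0.76 and DTL, which directs the breakdown of CDT1, by −0.68 in PANC-1. Ulixertinib lowered 28 in AsPC-1 (median −0.91, 10.9% of all genes) and 21 in PANC-1 (median −0.67, 7.88% of all genes). Upstream, CCND1, the gene of cyclin D1, changed with MEK inhibitors by −0.70 (AsPC-1) and −1.15 (PANC-1), and by −1.23 and −1.35 with ulixertinib. CDKN1A, which encodes the CDK inhibitor p21, fell as well, with values under MEK inhibitors of −1.07 (AsPC-1) and −0.36 (PANC-1). Of the 26 genes of G2 and mitosis, 13 were lower with MEK inhibitors in AsPC-1 (median −0.31) and 3 in PANC-1 (median −0.06). The PANC-1 count was near the 10.6% of all genes lower there, so it is not a trait of these genes. A difference between the lines was not tested for them.

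Split by the promoter letters, the 23 tested genes with an E2F-type match and the 13 without one both fell. With MEK inhibitors in AsPC-1, 18 of 23 with a match fell (median −0.60) and 10 of 13 without (median −0.53). In PANC-1 the same counts were 18 of 23 (median −0.58) and 6 of 13 (median −0.33). With ulixertinib they were 17 of 23 (median −1.26) and 10 of 13 (median −0.97) in AsPC-1, and 19 of 23 (median −0.91) and 10 of 13 (median −0.95) in PANC-1. RRM2 and ORC6 are among the genes without a match, and the split was not tested.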

How the data were processed

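The table of raw counts per gene and library was deposited by the authors, and its values were used as deposited, with no normalization before that. The submitters' processing notes name kallisto 0.44.0 and GRCh38, and how transcripts were annotated and turned into whole counts per gene is not given in the sources used here. Library totals of 1419228 to 5871860 counts set the precision. All columns of the table were matched to samples (0 were not), 4605 of the 25435 symbols had no count, and 23946 were found in GENCODE v29, from which gene positions were taken. No 2 libraries held identical counts, and log2 values of replicates correlated at 0.950 or more.

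Counts were tested with the robust quasi-likelihood method of edgeR 4.0.16 after TMM scaling and filterByExpr on treatment groups, in 1 fit per line over 68 libraries with treatment group and plate as terms and 37 residual degrees of freedom. The standard error was taken as the absolute log2 fold change divided by the square root of F. A class effect weights its drugs and both autophagy inhibitors equally. To compare effects across lines, the libraries of both were fitted together with plate nested in line (13960 genes). Tests were two-sided, with Benjamini-Hochberg adjustment over all genes of a comparison and a threshold of 0.05. The library titles carry a letter, A or B, within each line, called plate here. Whether it marks a culture plate or a library plate is not stated. It pairs the libraries across groups: deviations of same-plate libraries from their group means had a median correlation of 0.0476 (AsPC-1) and 0.0697 (PANC-1) over 435 pairs of groups. Baseline levels of the lines were not compared, because each line had titles of its own for A and B. CPM were computed from raw library totals. The score per library is the mean log2 CPM with a prior count of 2 over 38 genes.

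The genes, the other gene lists and the separate treatment of ulixertinib in PANC-1 were chosen with earlier results of these data known. Named in each comparison were the gene of each role with the smallest adjusted p, genes called against the majority, ORC6, PCNA and MCM7 (lowest mean rank of p over the MEK effect of both lines) and up to 3 genes of each other list. Other genes were named after their values were seen. Alternatives were DESeq2 1.42.0, RLE factors, no filter, no plate term, no mitochondrial genes, fits of the compared groups only, each plate by itself, and libraries or drugs left out. The scripts were tested on simulated data and ran under R 4.3.3 (limma 3.58.1), Python 3.11.15, pandas 2.3.3, NumPy 2.4.6, SciPy 1.17.1 and matplotlib 3.10.9.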

Additional observations from a re-analysis of the deposited data

Results flagged for a closer look

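Among the 152 groups of 6 libraries of an autophagy inhibitor alone (38 genes, both lines), 10 held a library that lay far from the other 5 by Dixon's test at 95%, and chance gives about 7.6. In AsPC-1 with HCQ, MCM3 reached 61.9 CPM in 1 library against 44.1 to 49.2 CPM in the others, POLA2 21.8 CPM against 10.4 to 13.1 CPM, and UHRF1 8.90 CPM against 4.47 to 5.93 CPM. In AsPC-1 with the Vps34 inhibitor, CDC6 reached 34.3 CPM against 16.4 to 20.3 CPM and CHAF1A 38.2 CPM against 15.7 to 23.5 CPM. In PANC-1 with HCQ, replicate 4 was the high one both for MCM3, with 131.4 CPM against 97.3 to 109.5 CPM, and for GINS3, with 10.2 CPM against 4.497 to 6.37 CPM. In PANC-1 with the Vps34 inhibitor, replicate 5 was the low one both for MCM3, with 69.5 CPM against 83.0 to 90.8 CPM, and for MCM10, with 17.3 CPM against 26.8 to 31.8 CPM, and POLE2 reached 32.1 CPM in 1 library against 8.44 to 14.5 CPM.

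Differences between the lines, each tested as an interaction with edgeR and given as PANC-1 minus AsPC-1 on the log2 scale, were called for the following named genes. For ERK inhibitors without ulixertinib, RRM2 differed by 1.43, PCNA by 0.66, CDC45 by 0.86, ORC6 by 0.40 and POLD2 by 0.42. For MEK inhibitors, RRM2 differed by 0.87 and PCNA by 0.33. For ulixertinib, MCM10 differed by 1.70, MCM6 by 1.10, POLD2 by 0.65 and DUT by 0.49, with CHAF1B at −0.88. For the Vps34 inhibitor against HCQ without a kinase inhibitor, PCNA differed by −1.03, GINS2 by −0.89, DUT by −0.69 and MCM5 by −0.64.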

How the results depend on the processing

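Apart from settings that leave out a library, 346 counts of called genes were within 1.5 times the reported count and 464 medians moved by less than the spread between replicates. The following did not, and the cause was not tested. Without the plate term (no replicate block), the AsPC-1 counts were 0 for dabrafenib, 1 for selumetinib and 3 for the other RAF inhibitors, the PANC-1 counts 1 for selumetinib and 2 for ERK minus MEK, and the line difference for ulixertinib 3. No filter gave 0, 1 and 3 for the same AsPC-1 drugs, 1 for selumetinib and 3 for ERK inhibitors with the Vps34 inhibitor in PANC-1, and 3 for the line difference for ulixertinib. DESeq2 gave 11 for ulixertinib minus other ERK inhibitors in AsPC-1 and 1 for sorafenib in PANC-1, and RLE factors gave 1 for selumetinib in AsPC-1 and 6 for the line difference for ERK inhibitors. With only the compared groups, which leaves fewer samples, AsPC-1 counts were 4 for ERK minus MEK, 4 for selumetinib, 6 for the autophagy inhibitors under MEK and ERK inhibitors and 0 for ulixertinib minus other ERK inhibitors, and PANC-1 counts 2 for ERK minus MEK, 10 for MEK inhibitors with the Vps34 inhibitor and 1 for selumetinib. ERK minus MEK in AsPC-1 was 11 without ravoxertinib, 3 without selumetinib and 1 without ulixertinib, and ulixertinib minus other ERK inhibitors 0 without ravoxertinib. In PANC-1, ERK inhibitors stood at 25 with ulixertinib included and 6 without SCH772984, and ERK minus MEK at 0 without ravoxertinib or trametinib. With ulixertinib included, 1 gene was lower and none higher in ERK minus MEK, RRM2 reversed there to −0.22, and its ERK effect to −0.29 (−0.0612 without ravoxertinib).

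Medians in AsPC-1 moved within plate A to −0.26 for dabrafenib, −1.18 for ERK inhibitors with the Vps34 inhibitor, −0.33 for ERK minus MEK and −1.35 for ulixertinib, and within plate B to −0.80 for binimetinib, −0.33 for GDC-0879 and 0.10 for the autophagy inhibitors under MEK and ERK inhibitors. They also moved to −0.68 for ERK inhibitors without ulixertinib, −0.32 for ERK minus MEK without ravoxertinib and −0.63 for ulixertinib minus other ERK inhibitors without SCH772984. In PANC-1 they were −0.26 for RAF709 within plate B, −0.42 and −0.40 for ERK inhibitors with ulixertinib included and without ravoxertinib, −0.41 for MEK inhibitors without trametinib and −0.47 for ulixertinib minus other ERK inhibitors without ravoxertinib. ERK minus MEK there was 0.0283 with ulixertinib included, 0.0033 without ravoxertinib and 0.25 without SCH772984.

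Leaving out libraries covers each library alone in turn and, at once, 1 of the 2 libraries of every drug group, whose lone library is then assumed to vary like the others. In fits of both lines the trend of the dispersion was kept from all libraries. AsPC-1 counts then ran from 12 to 22 for AZD0364, 6 to 18 for binimetinib, 7 to 17 for cobimetinib, 0 to 1 for dabrafenib, 1 to 8 for ERK minus MEK, 0 to 4 for GDC-0879, 0 to 1 for the interaction of the arms, 9 to 22 for MEK inhibitors with HCQ and 12 to 20 with the Vps34 inhibitor, 0 to 2 for PLX8394, 3 to 9 for RAF709, 7 to 14 for ravoxertinib, 8 to 19 for refametinib, 14 to 24 for SCH772984, 0 to 2 for selumetinib, 8 to 16 for trametinib, 4 to 12 for the autophagy inhibitors under MEK and ERK inhibitors, 0 to 5 for the other RAF inhibitors and 1 to 9 for ulixertinib minus other ERK inhibitors. PANC-1 counts ran from 2 to 9 for AZD0364, 5 to 19 for binimetinib, 2 to 15 for cobimetinib, 5 to 15 for ERK inhibitors (1 to 10 with HCQ, 1 to 5 with the Vps34 inhibitor), 0 to 4 for ERK minus MEK, 16 to 26 for MEK inhibitors (9 to 22 and 7 to 17), 1 to 9 for RAF709, 3 to 12 for refametinib, 6 to 18 for SCH772984, 0 to 2 for selumetinib, 0 to 1 for sorafenib, 12 to 25 for trametinib, 20 to 31 for ulixertinib, 3 to 7 for the autophagy inhibitors alone and 5 to 14 under MEK and ERK inhibitors, and 6 to 19 for ulixertinib minus other ERK inhibitors. Line differences ran from 3 to 10 for ERK inhibitors, 1 to 4 for MEK inhibitors, 0 to 6 for ulixertinib and 3 to 5 for the autophagy inhibitors alone. AsPC-1 medians ran from −0.80 to −0.65 for binimetinib, −0.29 to −0.0706 for dabrafenib, −1.14 to −0.91 for ERK inhibitors with the Vps34 inhibitor, −0.33 to −0.21 for ERK minus MEK, −0.33 to −0.19 for GDC-0879, −1.36 to −1.15 for ulixertinib and −0.0896 to 0.10 for the autophagy inhibitors under MEK and ERK inhibitors.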

Other observations

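In the PANC-1 libraries of the Vps34 inhibitor with sorafenib, TYMS held 1220.7 CPM on plate B and 272.7 CPM on plate A, and the summed level of the 39 genes was 2853 and 1837 CPM.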
